A study of Homo sapiens with 2 samples.

Results

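The subject is the set of PHF8 ChIP-seq peaks that lay whole inside 7 stretches of the human genome around the centromeres of chromosomes 3, 5, 6, 7, 10, 12 and 19. The stretches were fixed by position alone (GRCh38), and they hold 875 of the 4015 peaks of the vector library and 1129 of the 8928 peaks of the APOC2 library. PHF8 is a histone demethylase with a PHD finger. The cells were RKO, an established human colon carcinoma line, and received either vector or a plasmid for overexpression of APOC2, an apolipoprotein gene. There was 1 library for each condition, made with the same PHF8 antibody, and each had its own peak table. No difference between the libraries can therefore be set against replicates, and every comparison below describes these 2 libraries only. The labels give neither the level of APOC2 reached nor the time after transfection.

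Human centromeres are built from alpha satellite, a short DNA repeat whose monomers are joined head to tail and, at the active centromere, are grouped into higher-order units that recur with little change over long arrays. The arrays are classed into suprachromosomal families by the types of monomer they hold, and the 7 chromosomes here belong to the first family. Centromeric chromatin carries the histone H3 variant CENP-A within flanks of methylated heterochromatin. PHF8 is known instead for active promoters, where its PHD finger reads trimethylated lysine on histone H3 while its catalytic domain removes methyl groups that mark repression. In GRCh38 the centromeric arrays are computed models of such repeats, so a short read can match many places, and nearly identical arrays on chromosomes 5 and 19 can exchange reads. How reads with several matches were placed is not given in the sources used here.

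The intervals span 20.3 Mb in all and contain no annotated gene (RefSeq, GRCh38.p14), so none of their peaks is exonic, intronic or in a UTR. Chromosome 5 has the longest one, chr5:45696381-50396191 (4.70 Mb), which ends at EMB, the gene of the cell-surface glycoprotein embigin. The chromosome 3 interval, chr3:91513776-93843763 (2.33 Mb), ends 29.3 kb before PROS1, the gene of the anticoagulant protein S. The one on chromosome 12, chr12:34250266-37575342 (3.33 Mb), lies between ALG10 (222 kb away) and ALG10B (741 kb away), paralogous genes for a glucosyltransferase of N-glycan assembly. On chromosome 6, chr6:58121086-60281437 (2.16 Mb) begins 474 kb after PRIM2, which encodes a primase subunit. On chromosome 7, chr7:57868450-60991901 (3.12 Mb) begins 395 kb after the zinc finger gene ZNF716. The intervals on chromosomes 10 (chr10:39600000-41600000) and 19 (chr19:24500000-27200000) have rounded bounds inside longer gene-free stretches. Their nearest protein-coding genes, ZNF33B and ZNF254, which both encode zinc finger proteins, lie 974 kb and 370 kb away. On the inner side of each bound the first or last peak lay between 10.3 and 737 kb from it, and the nearest peaks beyond the bounds were at least 136 kb away, so in neither table did a peak lie across a bound.

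Peak density per Mb of interval differed several-fold between the chromosomes and had the same order in both libraries. Chromosome 19 was densest, with 204 vector peaks (75.6 per Mb, exact 95% Poisson interval 65.5 to 86.7) and 265 APOC2 peaks (98.1 per Mb, 86.7 to 111). Chromosome 3 was sparsest, with 25 vector peaks (10.7 per Mb, 6.94 to 15.8) and 35 APOC2 peaks (15 per Mb, 10.5 to 20.9). Between these lay, in falling order, chromosomes 10, 5, 6, 12 and 7. Chromosome 10 had 129 and 146 peaks in the vector and APOC2 libraries (64.5 and 73.0 per Mb). Chromosome 5 had 253 and 322 (53.8 and 68.5 per Mb), the largest numbers of any interval, in the longest one. Chromosome 6 had 105 and 140 (48.6 and 64.8 per Mb), and chromosome 12 had 113 and 154 (34.0 and 46.3 per Mb). Chromosome 7 had 46 and 67 (14.7 and 21.5 per Mb). The order in the middle depended on the bounds. Over the span from first to last peak, chromosome 5 (68.2 per Mb) passed chromosome 10 (65.7) in the vector library. In the APOC2 library chromosome 10 (88.6) stayed above chromosome 5 (86.7). Chromosome 6 came near them, at 63.4 (vector) and 84.6 (APOC2).

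**Figure D1:**
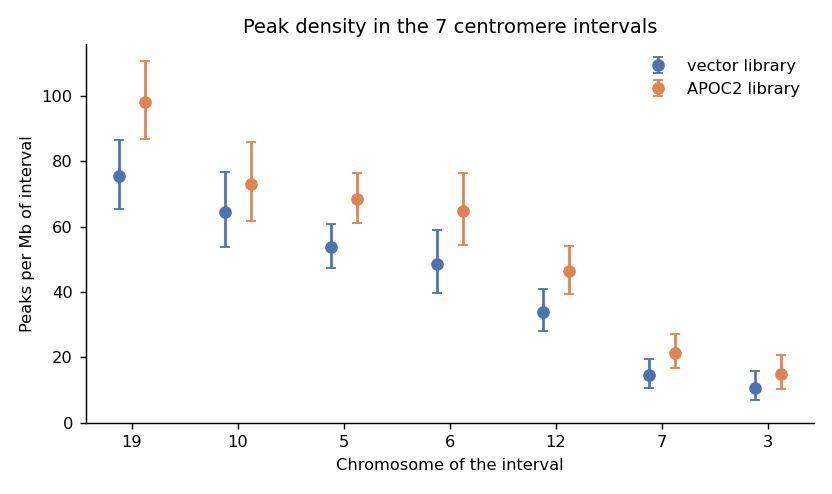
Peaks per Mb of interval (y axis) for each chromosome (x axis, ordered by the vector library), with points for the vector and the APOC2 library and bars for exact 95% Poisson intervals. Density falls from 75.6 and 98.1 per Mb on chromosome 19 to 10.7 and 15 per Mb on chromosome 3.

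Neighbours in the order per Mb of interval were separated beyond counting error at 1 step in the vector and 3 steps in the APOC2 library. In the vector library the intervals of chromosomes 19 and 10, 10 and 5, 5 and 6, 6 and 12, and 7 and 3 overlapped. The step between chromosomes 12 (28.0 to 40.9 per Mb) and 7 (10.8 to 19.6 per Mb) did not overlap. The APOC2 library had that step too, from 39.3 to 54.2 per Mb on chromosome 12 against 16.6 to 27.2 on chromosome 7. Its bounds also just missed each other between chromosomes 19 and 10 (86.7 and 85.8 per Mb) and between chromosomes 6 and 12 (54.5 and 54.2 per Mb). The highest density was 7.04 times the lowest in the vector library (95% interval 4.66 to 10.6) and 6.53 times in the APOC2 library (4.60 to 9.28). All such intervals express counting error alone: the peaks of a library do not replicate it, and whether copies of fragments were removed is not given.

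The APOC2 library had more peaks than the vector library on all 7 chromosomes, and by about the same factor on each. Together the intervals gave a ratio of 1.29 (1.18 to 1.41). The ratio per chromosome ran from 1.13 on chromosome 10 (0.894 to 1.43) to 1.46 on chromosome 7 (1.003 to 2.12), and all 7 intervals overlapped one another. On chromosomes 3 and 10 the interval included 1. Over the whole tables the ratio was 2.22, and at gene boundaries (peak midpoint no more than 1 kb from where a RefSeq-transcribed gene begins or ends) it was 4.15. The share of the table that lay in the 7 intervals was accordingly 21.8% for the vector and 12.6% for the APOC2 library. When the 4015 APOC2 peaks with the highest -log10 p were set beside the 4015 vector peaks, a comparison added after the values were seen, 531 of the APOC2 peaks were in the intervals against 875 of the vector peaks, and the ratio turned to 0.607.

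Within the intervals the peaks were not spread evenly. On chromosome 5, 192 of the 253 vector peaks and 240 of the 322 APOC2 peaks lay beyond the midpoint. The first peak of either library came 737 kb after the start of the interval. The fullest 200 kb there (49496381 to 49696380) held 50 vector and 60 APOC2 peaks. Chromosome 19 was lopsided in the same direction, with 146 of 204 vector and 170 of 265 APOC2 peaks beyond the midpoint. Its last 200 kb (27000000 to 27199999) held 46 and 50 peaks. On chromosome 3 the tilt was opposite, with 18 of 25 vector and 26 of 35 APOC2 peaks before the midpoint. On chromosome 12 the midpoint divided the peaks about evenly (59 before and 54 after it among vector peaks, 76 and 78 among APOC2 peaks), and the fullest window of 100 kb (37150266 to 37250265) lay near the distal edge of the occupied part, with 11 and 13 peaks. On chromosome 10 the fullest vector window was its last 100 kb, with 18 peaks, where the APOC2 library had 14. The fullest APOC2 window (40400000 to 40499999) had 15, only slightly more, and 12 vector peaks.

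The numbers of peaks per window ran together in the libraries, although the fullest window was not the same one on chromosomes 3, 6, 7 and 10. Across 206 windows of 100 kb, the peak numbers of the libraries had a Spearman correlation of 0.946 and a Pearson correlation of 0.951, given as a description, since the windows share libraries, genome model and control. Windows with at least 1 peak made up 59.6% of the vector windows on chromosome 5 and 92.6% on chromosome 19. On chromosome 5 neighbouring summits lay a median of 6.07 kb (vector) and 4.99 kb (APOC2) apart. Chromosome 19 had medians of 7.86 and 6.50 kb, and chromosome 3 had 52.8 and 47.4 kb.

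**Figure D2:**
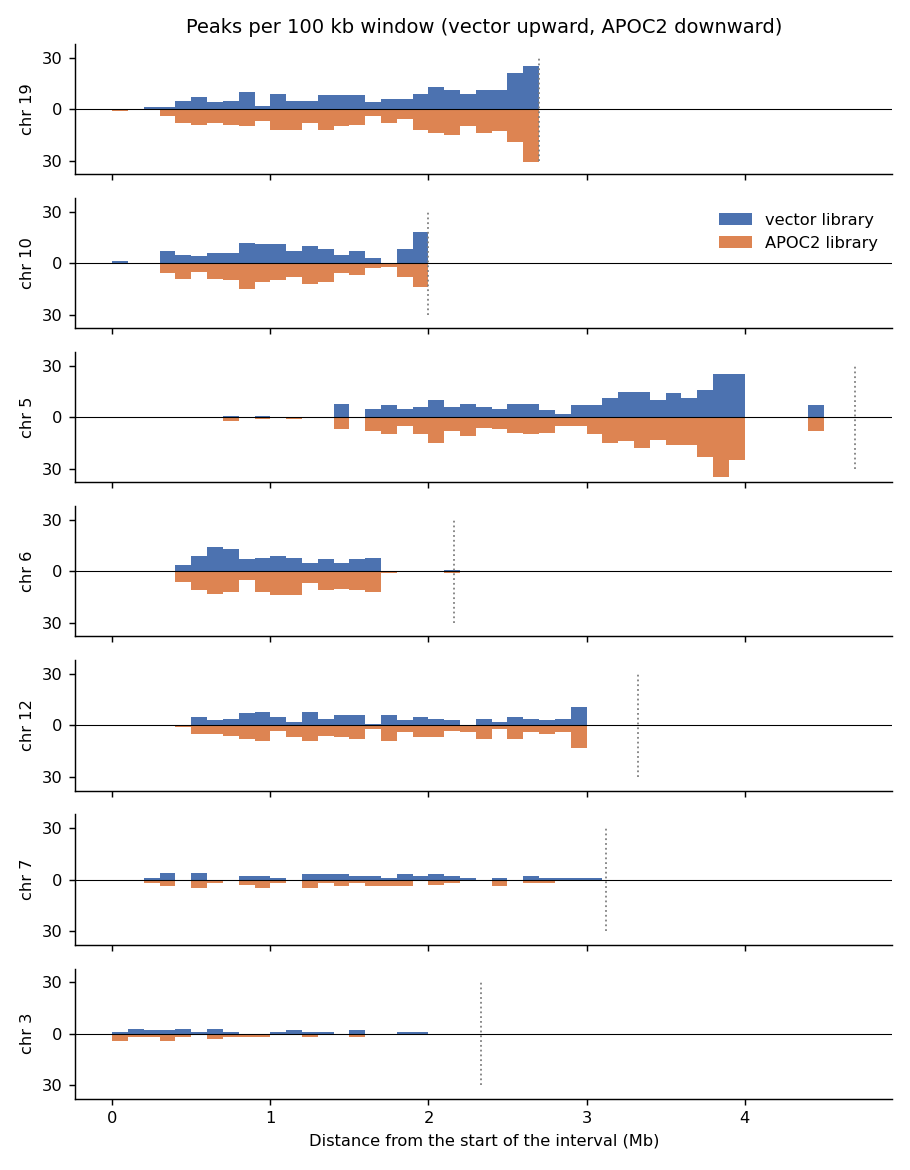
Number of peaks per 100 kb window (y axis, vector upward and APOC2 downward) against distance from the start of each interval in Mb (x axis), 1 panel for each chromosome, with a dotted line at the interval's end. The profiles of both libraries mirror each other, with the fullest windows (25 vector and 35 APOC2 peaks on chromosome 5, 25 and 31 on chromosome 19) towards the distal end.

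The signal at the summit was measured as fragment pileup. The tables had been scaled differently by the peak caller, and the step sizes in the values gave the APOC2 library 0.824 times the depth of the vector library if both had the same control. Pileups were therefore also put on the depth of the control (depth-scaled pileup). The median depth-scaled pileup of the vector peaks was 19.8 fragments (18.8 to 20.8), and that of the APOC2 peaks was 16.8 (15.6 to 16.8). These medians are over different sets of peaks, and 410 of the APOC2 peaks had no vector peak over them. Over the 714 pairs of overlapping peaks the medians were 21.8 (vector) and 20.4 fragments (APOC2). Chromosome 5 had 21.8 fragments (19.8 to 22.8) for the vector and 18 (16.8 to 19.2) for APOC2, which no other chromosome exceeded. Chromosome 12 equalled it in the vector library (21.8) and chromosome 19 in the APOC2 library (18). Across chromosomes 7, 10, 12 and 19 the vector medians were 19.8 to 21.8 fragments and the APOC2 medians 15.6 to 18, with intervals that overlapped those of chromosome 5. Chromosome 6 was lowest, with 13.9 (12.9 to 14.8) and 12 (12 to 13.2), below the intervals of chromosomes 5, 10, 12 and 19 in both libraries. Chromosome 6 was thus dense in peaks but had weak ones. Chromosome 3, at 14.8 (12.9 to 18.8) and 14.4 (12 to 19.2), did not differ from chromosome 6 beyond these intervals.

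Fold enrichment, the pileup over the caller's local background with 1 added to both, ordered the chromosomes differently at the top. Chromosome 12 had the highest median among vector peaks, 10.9 (9.42 to 12.4), and tied with chromosome 19 among APOC2 peaks at 8.30 (7.19 to 9.28 on chromosome 12). Chromosome 6 had the lowest, 7.43 (6.93 to 7.93) and 6.08 (5.63 to 6.64). A fold enrichment of 20 or more was reached by 23 vector and 20 APOC2 peaks on chromosome 12, 21 and 19 on chromosome 5, and 19 and 16 on chromosome 19. On chromosome 3 there was 1 in each library. Per Mb of interval these strong peaks were most frequent on chromosomes 19 (7.04 and 5.93) and 12 (6.92 and 6.01). Of the 100 highest fold enrichments of each whole table, 51 of the vector and 47 of the APOC2 values belonged to the 7 intervals. Chromosome 12 alone gave 14 of each. The intervals held 21.8% and 12.6% of all peaks. Other gene-free stretches of at least 1 Mb also held peaks with a fold enrichment of 20 or more. There were 36 vector and 29 APOC2 peaks on chromosomes 1, 9 and 16, and 34 and 22 on chromosomes 2, 4, 8, 18 and 20. The acrocentric chromosomes had 9 and 3, against 81 and 74 in the 7 intervals.

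**Figure D3:**
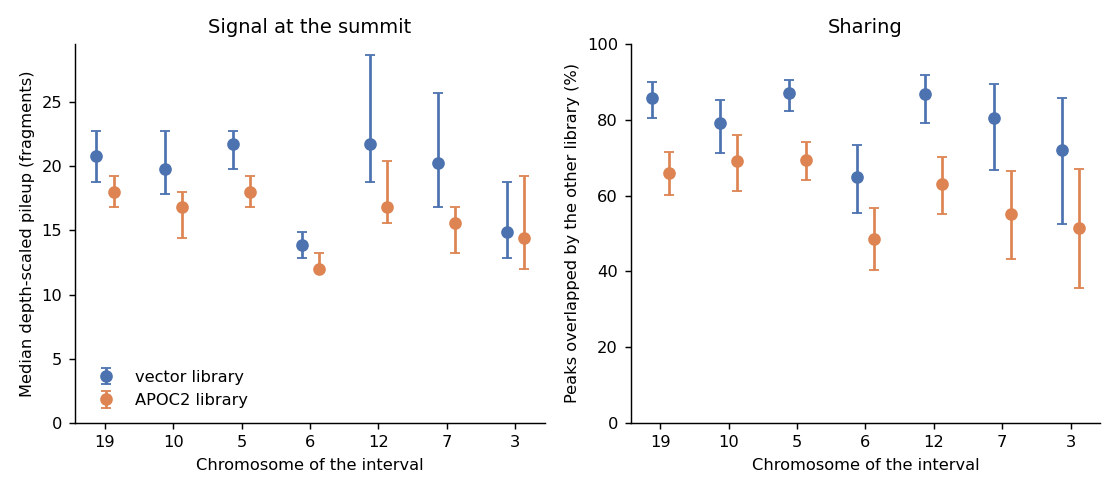
Left, median depth-scaled pileup in fragments with 95% order-statistic intervals; right, percentage of peaks overlapped by a peak of the other library with 95% Wilson intervals; both by chromosome, with points for the vector and the APOC2 library. Chromosome 6 has the lowest medians (13.9 and 12 fragments) and the lowest shares (64.8 and 48.6%).

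The control carried very little signal under most of these peaks. The local background implied by pileup and fold enrichment was within 5% of the lowest value of its table at 709 of 875 vector peaks (81.0%, Wilson interval 78.3 to 83.5%) and at 940 of 1129 APOC2 peaks (83.3%, 81.0 to 85.3%). At gene boundaries this held for 1.74% of vector and 1.23% of APOC2 peaks, where the median background was 5.00 and 4.36 fragments against 0.998 and 0.808 in the 7 intervals. The median pileup of the vector peaks, 19.8, was below the 28.7 at gene boundaries, while the median fold enrichment, 9.24, was above the 5.11 there. In the APOC2 library the medians were 14 against 28 fragments (as deposited) and 7.64 against 5.27. The higher fold enrichment of the centromere peaks thus stood beside a lower background and a lower pileup. This profile was not particular to the 7 intervals. In gene-free stretches of chromosomes 1, 9 and 16, 73.9% of vector peaks were at the lowest background, with a median fold enrichment of 8.91. The values were 93.4% and 7.93 on chromosomes 2, 4, 8, 18 and 20, and 96.5% and 8.19 on the acrocentric chromosomes. Among the 7 intervals, the share at the lowest background ran from 69.0% on chromosome 10 to 99.0% on chromosome 6 in the vector library. In the APOC2 library it ran from 70.5% to 97.1% on the same chromosomes.

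A few members had the opposite profile, a high background with a low fold enrichment. They were looked for after the values were seen, with a background of at least 20 fragments. The vector library had 17 such peaks and the APOC2 library 10. Of these, 14 and 9 lay close together on chromosome 5, between 49599561 and 49661838 (62.3 kb). Pileups of these high-background peaks were 64.3 to 247 fragments in the vector and 115 to 232 in the APOC2 table, over backgrounds of 22 to 103 and 39.1 to 79.1 fragments, and their fold enrichments were 2.11 to 5.46 and 2.54 to 4.93. Other members in the same stretch had lower backgrounds. The longest members were here, at 49643504 to 49646253 (2750 bp, vector) and 49643466 to 49646521 (3056 bp, APOC2). Also in the stretch, the vector peak at 49601520 to 49601758 (119 fragments), had no partner in the APOC2 table. A further such peak, on chromosome 3, reached the highest pileup of each whole table, a value that peaks outside the 7 intervals also reached. In the vector library (93470364 to 93470794) it had 443.31 fragments over a background of 225, a fold enrichment of 1.97. In the APOC2 library (93470355 to 93470801) it had 436 over 186, a fold enrichment of 2.34. The same maxima, 443.31 and 436, occurred in gene-free stretches of chromosomes 1, 9 and 16. They may be a ceiling of the counting and not a measured height, which was not tested. The pileups and fold enrichments of this pair are therefore not read as a difference between the libraries. Whether the high-background sites are on a list of problem regions was not tested. Without peaks of such background, the pooled peak ratio, density range, sharing, median log2 ratio and relative strength of unpaired peaks all kept within the 95% intervals of their values over all members.

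Most vector peaks in the intervals had an APOC2 peak at the same place, and a smaller share of APOC2 peaks had a vector peak. Of the 875 vector peaks, 718 (82.1%, 79.4 to 84.5%) were overlapped by an APOC2 peak by at least 1 bp, beside 83.6% over the whole vector table. In the other direction, 719 of 1129 APOC2 peaks (63.7%, 60.8 to 66.4%) had a vector peak over them, beside 37.3% over the whole APOC2 table. The first share is near its background, while the second is above it. Of the APOC2 peaks at gene boundaries, 22.9% were overlapped. In gene-free stretches of other chromosomes the share was 65.7% (chromosomes 1, 9 and 16), 57.4% (2, 4, 8, 18 and 20) and 57.1% (acrocentric chromosomes). A share above that of the whole APOC2 table was therefore not particular to the 7 intervals. Among chromosomes, sharing of vector peaks was highest on chromosomes 5 (87.0%, 82.2 to 90.6%), 12 (86.7%, 79.2 to 91.8%) and 19 (85.8%, 80.3 to 89.9%). It was 80.4% on chromosome 7, 79.1% on chromosome 10 and 72% on chromosome 3. Chromosome 6 had the lowest share, 64.8% (55.3 to 73.2%), below the intervals of chromosomes 5, 12 and 19. The APOC2 peaks were shared at 69.3% on chromosome 5, 69.2% on chromosome 10, 66% on chromosome 19, 63.0% on chromosome 12, 55.2% on chromosome 7, 51.4% on chromosome 3 and 48.6% (40.4 to 56.8%) on chromosome 6.

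Sharing rose with the strength of the peak. When the vector members were divided at the quartiles of their pileup, 58.3% (52.1 to 64.2%) of those with 8.91 to 14.8 fragments had a partner, then 81.7%, 93.7% and, from 31.7 fragments up, 99.5% (212 of 213). In the APOC2 library the shares were 33.9% (29.3 to 38.8%) at 6 to 11 fragments, 53.9%, 80.9% and, from 22 fragments up, 98.5% (270 of 274). Among the weaker members alone (a pileup up to the median), the share of vector peaks with a partner was 57.0% (46.4 to 66.9%) on chromosome 6, 73.5% (64.6 to 80.7%) on chromosome 5 and 74.7% (65.4 to 82.3%) on chromosome 19. The interval of chromosome 6 overlapped the other intervals only narrowly, and such overlap is not a test of equal shares. Whether pileup accounts for the lower share of chromosome 6 was not tested. Above the median, 19 of 19 vector peaks on chromosome 6 and 137 of 140 on chromosome 5 had a partner.

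The members without a partner were weaker and shorter. In the APOC2 library their median fold enrichment was 0.721 times that of the members with one (6.38 against 8.85), their median pileup 11 against 17 fragments and their median length 240 against 317 bp. In the vector library the medians were 7.43 against 9.91, 13.9 against 21.8 fragments and 254 against 310 bp. The nearest peak of the other library was a median of 3.47 kb away from the 157 vector peaks without a partner and 5.53 kb from the 410 such APOC2 peaks. Only 28 (17.8%) and 57 (13.9%) of them had one within 1 kb.

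Shared peaks were paired 1 to 1 by longest overlap, which gave 714 pairs in the intervals. Their summits were a median of 24 bp apart, and 74.9% were within 50 bp, against 35 bp and 63.2% for pairs elsewhere in the genome. In gene-free stretches the values were 28 bp and 69.8% on chromosomes 1, 9 and 16. They were 35.5 bp and 62.4% on chromosomes 2, 4, 8, 18 and 20, and 31 bp and 67.3% on the acrocentric chromosomes. On chromosome 19 the median was 21 bp and on chromosome 6 it was 51 bp. Fold enrichment of the APOC2 peak over that of its vector partner had a median log2 ratio of -0.14 (95% order-statistic interval -0.16 to -0.10), and 250 pairs (35.0%) had a log2 ratio above 0. A fold enrichment at least 1.5-fold higher in the APOC2 library was found at 23 pairs (3.22%), beside 17.6% of all 3300 pairs of the tables. One at least 1.5-fold lower was found at 86 (12%), beside 7.97% of all pairs. In gene-free stretches of chromosomes 1, 9 and 16, 3.57% of pairs were at least 1.5-fold higher and 9.89% at least 1.5-fold lower. The shares were 2.16% and 12.4% on chromosomes 2, 4, 8, 18 and 20, and 1.63% and 16.01% on the acrocentric chromosomes. Fewer rises and more falls than over all pairs were therefore not particular to the intervals. The tables had been scaled to different depths, and the same comparison was therefore made on other measures. On depth-scaled pileup the median was -0.042 (-0.068 to -0.003), with 45.7% above 0, and for pileup over background without the added 1 it was -0.02 (-0.04 to 0.01). Depth scaling makes no allowance for fragment length, and the shortest peaks were 224 bp (vector) and 218 bp (APOC2). The part of fragment length in the median was not tested. With depth-scaled pileup, 33 pairs (4.62%) were at least 1.5-fold higher and 57 (7.98%) at least 1.5-fold lower, beside 20.2% and 5.21% of all pairs. In the gene-free groups of other chromosomes these shares ran from 3.92 to 4.86% and from 5.49 to 11.4%. At gene boundaries the median on the same scale was 0.56.

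Among the chromosomes, only 10 and 12 were separated from each other in the ratio at their shared peaks. The median log2 ratio of depth-scaled pileup was -0.14 (-0.23 to -0.07) on chromosome 10, where 29.0% of 100 pairs were above 0. It was 0.06 (-0.04 to 0.12) on chromosome 12, where 57.7% of 97 pairs were above 0, and these 2 intervals did not overlap. On chromosomes 3, 5, 6, 7 and 19 it lay between -0.04 and 0.01, with intervals that included 0. Fold enrichment gave negative medians on all 7 chromosomes, from -0.23 on chromosome 10 to -0.06 on chromosome 12. It adds 1 to backgrounds that differ between the tables (medians of 0.998 and 0.808), so its sign depends on that scale. Without the added 1 the medians were positive on chromosomes 3 (0.05), 7 (0.08) and 12 (0.06). On chromosomes 5, 6, 10 and 19 they were negative, from -0.10 on chromosome 10 to -0.01 on chromosome 6. Across the 714 pairs, log2 depth-scaled pileup had a Pearson correlation of 0.922 between the libraries and a Spearman correlation of 0.835, as a description over peaks of the same 2 libraries and the same genome model. By chromosome the Pearson value was between 0.740 on chromosome 6 and 0.960 on chromosome 12.

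**Figure D4:**
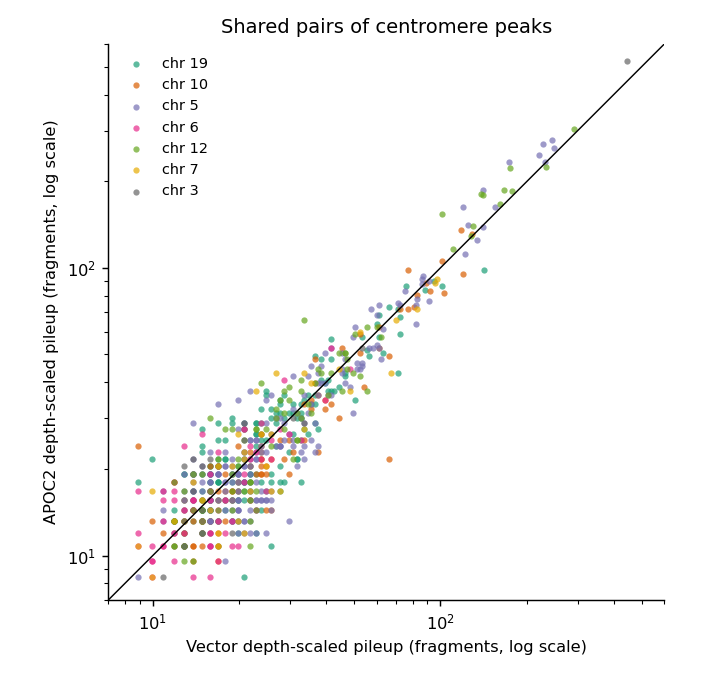
Depth-scaled pileup in fragments of the APOC2 peak (y axis) against the vector peak (x axis) for the 714 shared pairs, both on log scales, coloured by chromosome, with the line of equal values. The points follow the line over the whole range, with a Pearson correlation of 0.922.

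The strongest shared pair of each chromosome (highest mean log2 fold enrichment) changed by less than the counting error of its pileups. On chromosome 12, at 36205285 to 36205765 in the vector table, fold enrichment was 117 (vector) and 104 (APOC2), with depth-scaled pileups of 233 and 225 fragments (log2 ratio -0.05, 95% counting interval -0.33 to 0.23). On chromosome 5, at 49478956 to 49479367, depth-scaled pileup was 122 and 112 fragments and fold enrichment 61.4 and 51.3. Its background was at the lowest level, unlike that of the high-background stretch farther along. On chromosome 7, at 58797641 to 58798103, it was 97.0 and 91.3 fragments with summits 1 bp apart, and fold enrichment was 49.1 and 42.6. On chromosome 19, at 27162955 to 27163401, it was 95 and 90.1 fragments, and fold enrichment was 48.0 and 41.5.

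On chromosome 10, at 40980826 to 40981448, depth-scaled pileup was 100.9 and 105.7 fragments. Fold enrichment there was 51.0 and 33.4 (log2 ratio -0.61), over backgrounds of 1.00 (vector) and 1.66 (APOC2). On chromosome 3, at 91572677 to 91573072, the pair had 53.4 and 52.9 fragments and fold enrichments of 27.3 and 24.9. On chromosome 6, at 58784730 to 58785050, the vector peak had 41.6 and the APOC2 peak 52.9 fragments, with fold enrichments of 21.3 and 24.6. That last pair had the only positive log2 ratio of fold enrichment of the 7, 0.21, and its counting interval on depth-scaled pileup (-0.30 to 0.99) included 0. The strongest pairs of chromosomes 3 and 6 were thus below a fold enrichment of 30, whereas that of chromosome 12 was above 100 in both libraries.

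The pairs with the largest rises and falls had a fold enrichment under 20 in both libraries. The largest rise was on chromosome 10, at 40715151 to 40715477, where the depth-scaled pileups were 8.91 (vector) and 24.0 fragments (APOC2), and fold enrichment 4.95 and 11.5 (log2 ratio 1.21). The APOC2 peak was the longer one (40715142 to 40715968), with its summit 501 bp from that of the vector. Next were chromosome 19, at 26975700 to 26976092 (fold enrichment 5.45 and 10.4), and chromosome 5, at 49374288 to 49374514 (7.44 and 13.8). The largest falls were on chromosome 19, at 27058996 to 27059353, from 13.4 to 5.53 (log2 ratio -1.27), on chromosome 10, at 40771340 to 40771802, from 11.7 to 4.86, and on chromosome 5, at 47787068 to 47787377, from 15.4 to 6.64. For the chromosome 10 site the log2 ratio of depth-scaled pileup was -0.31 (counting interval -1.32 to 0.67), and its backgrounds were 1.12 (vector) and 2.50 (APOC2). These pairs were chosen as extremes of 714, so their ratios are a description.

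Peaks without a partner reached a fold enrichment of at most 15.4 (vector) and 13.3 (APOC2). Among APOC2 peaks the strongest was on chromosome 5, at 49459536 to 49459844, with a fold enrichment of 13.3 and 23 fragments as deposited, and a vector peak 5613 bp away. On chromosome 12, at 35174334 to 35174703, it was 12.2 with 21 fragments, and a vector peak lay only 646 bp away. On chromosome 19, at 26456889 to 26457350, it was 10.9 with 19 fragments. The strongest on chromosomes 6 (59167999 to 59168292), 3 (93259048 to 93259311), 7 (58071846 to 58072250) and 10 (40478208 to 40478540) had fold enrichments of 9.82, 9.40, 8.85 and 8.73. The one on chromosome 3 was 122 kb from any vector peak.

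In the vector library the strongest peak without a partner lay on chromosome 7, at 59082774 to 59083116, with a fold enrichment of 15.4 and 29.7 fragments, 7934 bp from the nearest APOC2 peak. The strongest on chromosome 5 (48617226 to 48617560), chromosome 10 (39968181 to 39968466), chromosome 12 (36212766 to 36213026) and chromosome 19 (26992720 to 26992982) had fold enrichments of 11.9, 11.6, 11.4 and 10.9. On chromosomes 3 (91801482 to 91801775) and 6 (58733463 to 58733701) they were 9.91 and 9.42. The peak on chromosome 10 was 435 bp from an APOC2 peak. All 14 of these peaks were below a fold enrichment of 20, the level passed by 81 vector and 74 APOC2 members.

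The set was then compared with peaks in gene-free stretches of at least 1 Mb on other groups of chromosomes. The 7 intervals were densest, at 43.0 vector peaks per Mb (40.2 to 46.0) and 55.5 APOC2 peaks per Mb (52.3 to 58.8). On chromosomes 2, 4, 8, 18 and 20 there were 30.1 (27.6 to 32.8) and 36.8 (34.0 to 39.7) per Mb. The intervals of chromosomes 10 and 19 have rounded bounds inside longer gene-free stretches, so this ranking is not over stretches bounded alike. How far it depends on those bounds was not tested. On chromosomes 1, 9 and 16 (8.94 and 11.2) and on the acrocentric chromosomes 13, 14, 15, 21 and 22 (6.0 and 7.67) density was lower, but those stretches hold other sequence besides centromeric arrays, so that their densities are not over like sequence. The ratio of peak numbers did not separate the groups: it was 1.22 (1.09 to 1.37), 1.26 (1.11 to 1.42) and 1.28 (1.13 to 1.45), against 1.29 here.

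Sharing of vector peaks separated them in part. The 82.1% of the 7 intervals was above the 70.0% (66 to 73.8%) of chromosomes 2, 4, 8, 18 and 20 and the 72.6% (68.1 to 76.6%) of the acrocentric group, and close to the 83.8% (80.1 to 86.9%) of chromosomes 1, 9 and 16. Median vector pileups followed the same division, at 19.8 fragments here, 15.8 in each of those lower groups and 18.8 on chromosomes 1, 9 and 16. With sharing so dependent on pileup, the part of pileup in these differences was not tested.

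The spacing of summits was examined against the repeat length. Of the distances of up to 5 kb between summits of the same library, 9.44% in the vector (39 of 413) and 11.0% in the APOC2 library (64 of 584) were within 10 bp of a multiple of the alpha-satellite monomer length. Outside gene-free stretches the shares were 12.5% and 13.9%, so the share was not higher in the intervals. A longer spacing was then searched for, a step added after these values were seen. Over distances of up to 20 kb, the mean cosine at each period between 300 and 2000 bp was highest at 1026 bp on chromosome 5 and 1024 bp on chromosome 19 in the vector library, and at 1024 and 1022 bp in the APOC2 library. A period of 1026 bp equals 6 monomers. The mean cosine at 1026 bp was 0.16 and 0.13 on chromosome 5 and 0.18 and 0.19 on chromosome 19 in the 2 libraries (vector first). It was between -0.05 and 0.05 on chromosomes 6, 10 and 12 in both libraries, but these had leading values of their own at other periods. On chromosome 12 the mean cosine was highest at 845 bp (0.23, vector) and 843 bp (0.13, APOC2), so that the vector value was above those of chromosomes 5 and 19. On chromosome 6 it was highest at 307 bp (0.20) and 820 bp (0.11), and on chromosome 10 at 1001 bp (0.11) and 489 bp (0.12). Outside gene-free stretches it reached 0.08 and 0.12. A leading value of this size was therefore not particular to chromosomes 5 and 19. Chromosomes 3 and 7 had at most 31 such distances and gave no usable value.

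**Figure D5:**
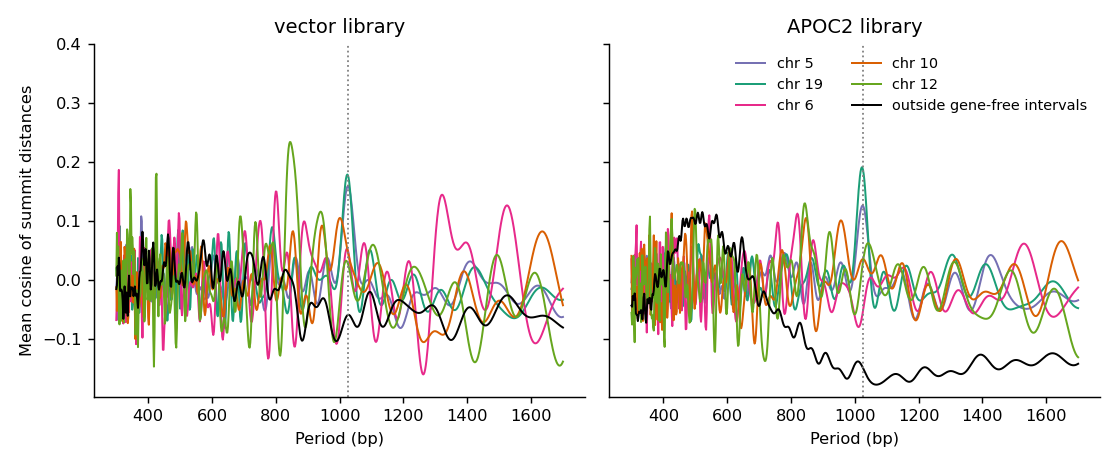
Mean cosine of the distances of up to 20 kb between summits (y axis, no unit) against the assumed period in bp (x axis), for the vector (left) and the APOC2 library (right), with lines for chromosomes 5, 19, 6, 10 and 12 and for peaks outside gene-free stretches and a dotted line at 1026 bp. Chromosomes 5 and 19 have their maxima near the dotted line in both libraries (0.13 to 0.19), and other lines have maxima of like size at other periods, such as 0.23 at 845 bp on chromosome 12 in the vector library.

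Put as a share, 27.5% of 621 vector and 25% of 983 APOC2 distances on chromosome 5 were within 100 bp of a multiple of 1026 bp, and 25.7% (108 of 420) and 29.4% (190 of 647) on chromosome 19. The shares were 22.8% and 17.2% on chromosome 6, 23.6% and 21.8% on chromosome 10, and 19.3% and 19.8% on chromosome 12, and outside gene-free stretches 16.4% and 16.5%. The period was chosen from these same distances, so raised shares on chromosomes 5 and 19 follow from that choice and add no support. Outside gene-free stretches the mean cosine at 1026 bp was negative (-0.06 and -0.15), so the shares there are not a neutral reference. Both libraries carry largely the same peaks on these chromosomes, so the second library is not an independent observation of the spacing. The sequence of the arrays was not analysed here, and whether the repeats of chromosomes 5 and 19 have a unit of this length was not tested.

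Finally, genes whose products work at centromeres were looked up for PHF8 peaks at their own boundaries, although none of these genes lies in the 7 intervals. Of 35 such genes, 1 (2.86%) carried a vector peak no more than 1 kb from an end, beside 5.95% of 20043 protein-coding genes, and 10 (28.6%) carried an APOC2 peak, beside 23.8%. With 35 genes the APOC2 share is near that over all protein-coding genes. The gene with a peak in both was CENPP, a subunit of the constitutive centromere network, with fold enrichments of 7.03 (vector) and 8.17 (APOC2). Among those with a peak in the APOC2 library alone were CBX5, which encodes the heterochromatin protein HP1 alpha (10.1), CENPN, which binds CENP-A nucleosomes (6.75), SGO1, a protector of centromeric cohesion (6.21), and CENPC, which links CENP-A to the kinetochore (6.0). SUV39H2, a methyltransferase for histone H3 in heterochromatin, had 4.57.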

How the data were processed

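PHF8 ChIP-seq of RKO cells was analysed from 1 peak table per library (vector, APOC2). Bowtie2 2.2.9, MACS2 2.0, HOMER and hg38 are named in the submitters' processing notes, without roles or settings. Per the file headers, the deposited pileup is the fragment signal at the summit, and the deposited fold enrichment is a ratio of pileup to local background. Columns that had lost their names held the deposited -log10 of the p-value and q-value, as judged from place and values. The control library, duplicate removal, treatment of reads with several matches and thresholds are not given in the sources used here. Read totals, and hence absolute depth, are unknown.

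Peaks lying whole in the 7 intervals were taken (Python 3.11.15, pandas 2.3.3, SciPy 1.17.1). Overlap of at least 1 bp was counted in code and with bedtools 2.31.1, with equal results. Of the vector pileups, 99.8% were multiples of 0.98953, and 64.3% of APOC2 backgrounds above 1.5 were multiples of 0.8325 (tolerances 0.0051 and 0.005), which gave the relative depth if the control was shared. Background was (pileup + 1) / fold enrichment - 1. Genes came from a RefSeq table (GRCh38.p14, the same assembly as hg38). No p-value was computed between libraries, as each condition had 1. Functions were tested on simulated data. The named peaks were, for each interval, the strongest shared pair and the strongest peak of each library without a partner, and over all intervals the 3 largest rises and falls. Intervals, lists and rules were chosen with earlier results of these data known. Alternatives were a stricter q-value or fold enrichment, shortened intervals, other overlap rules, merged peaks, equal peak numbers, other measures and density over the occupied span. No sequence is shown, since no genome was used here. Some items are not reported here.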

Additional observations from a re-analysis of the deposited data

How the results depend on the processing

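No paired analysis was possible because each condition had 1 library, and no replicate could be left out. Of 62 recomputed pooled values, 49 stayed within the 95% interval of the reported value, 12 left it and 1 reversed. A q-value of at most 0.001, a fold enrichment of at least 5, shortened intervals, leaving out chromosome 5, merging peaks within 1 kb and, added after the values were seen, leaving out peaks with a background of 20 or more changed none of them, and chromosomes 19 and 3 stayed the densest and the sparsest in all settings. With equal numbers of top-ranked peaks, sharing became 53.9% (vector) and 88.3% (APOC2), the median log2 ratio at shared pairs -0.040, and the ratio of peak numbers (added after the values were seen) reversed to 0.607. By chromosome that ratio became 0.644 on chromosome 5, 0.295 on chromosome 6, 0.630 on chromosome 7, 0.699 on chromosome 12 and 0.750 on chromosome 19, which are reversals as well. When 50% of both peaks had to overlap, sharing was 76.6% and 59.3%, and when peaks within 1 kb counted it was 85.3% and 68.7%. The median log2 ratio was -0.31 with pileup as deposited, -0.21 with -log10 p, -0.042 with depth-scaled pileup and -0.015 without the added 1. With -log10 p the relative strength of APOC2 peaks without a partner was 0.606. On chromosome 12 the median log2 ratio reversed to 0.057 with depth-scaled pileup and to 0.063 without the added 1, and the strongest pair of chromosome 10 reversed to 0.067 with depth-scaled pileup, where its background differed between the tables. The values of -0.31 and -0.042 come from the same pileups before and after scaling for depth. The cause of the other changes was not tested. Of 384 values of single chromosomes and named pairs, 336 did not change, 40 did and 8 reversed. Unknown read totals limit the comparison of levels between libraries.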
